A study of Caenorhabditis elegans with 2 samples.

Results

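The 4 protein-coding genes K12H4.5, K12H4.6, M01F1.8 and M01F1.9 lie on chromosome III of *Caenorhabditis elegans*, beside the 2 regions of highest signal in a chromatin immunoprecipitation sequencing (ChIP-seq) list for the transcription factor AHR-1. They were chosen by that signal, out of 19973 coding genes on the nuclear chromosomes and 479 regions of the list. The list had been thresholded by IDR, a procedure that keeps regions ranked alike in replicates. Both regions were therefore strong by choice, and their strength is described here with no test. The material was hermaphrodite late embryos of strain OP562, genotype unc-119(tm4063) III; wgIs562. Synchronization was by egg bleaching and collection 3.5 h later, and every sample carried AHR-1 with GFP and FLAG at its C-terminus, made from a stable transgene. The precipitation was against GFP, so the lists record the tagged protein in whole embryos, all cell types together. There was 1 group with 2 biological replicates and no other condition, and no untagged precipitation was analysed here. Which cells carried the tagged protein cannot be read from lists of regions.

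AHR-1 is the worm member of the aryl hydrocarbon receptor family, which are bHLH-PAS proteins that bind DNA together with a partner, AHA-1 in worms. The DNA core recognised by the family is GCGTG, the xenobiotic response element. In worms AHR-1 is known for its part in the fates of several neuron classes. Of the genes beside the regions, K12H4.5 and K12H4.6 encode uncharacterised proteins in the RefSeq annotation. M01F1.8 is annotated there as encoding a lipoprotein, or in its other transcript a protein with a von Willebrand factor type D domain, and M01F1.9 a protein with an arrestin N-terminal domain.

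The sequences under the 2 regions are shown first, because they differ in kind. Both are the plus strand of RefSeq build WBcel235 (ce11), with positions counted from 1. The first is 300 bases of the region beside K12H4.5 (chrIII:8043812-8044111, with the summit at base 150), and the second is the whole region in M01F1.8 (chrIII:3499876-3500170, with the summit at base 148). Capitals mark every word of 8 bases that the windows within 100 bp of both summits hold on either strand.
K12H4.5 region: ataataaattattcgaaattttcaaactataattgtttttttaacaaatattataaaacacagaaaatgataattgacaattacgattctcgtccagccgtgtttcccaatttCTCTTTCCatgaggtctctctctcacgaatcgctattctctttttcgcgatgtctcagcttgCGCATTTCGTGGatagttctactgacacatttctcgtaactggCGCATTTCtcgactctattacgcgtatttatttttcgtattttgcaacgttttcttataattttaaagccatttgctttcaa
M01F1.8 region: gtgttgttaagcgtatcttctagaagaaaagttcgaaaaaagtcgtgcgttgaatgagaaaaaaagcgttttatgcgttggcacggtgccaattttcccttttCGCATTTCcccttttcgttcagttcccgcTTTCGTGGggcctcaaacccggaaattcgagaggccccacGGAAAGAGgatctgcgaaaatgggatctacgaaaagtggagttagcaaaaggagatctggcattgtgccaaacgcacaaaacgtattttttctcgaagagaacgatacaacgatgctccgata

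The 2 windows shared 3 such words, counted once for both strands. The word CGCATTTC occurred in 2 places at K12H4.5 and in 1 at M01F1.8. Sharing 3 words was common among the strongest regions, and no more is read from it: 183 of the other 478 IDR windows shared at least as many with the K12H4.5 window, and 194 of 478 did with the M01F1.8 window. Of all IDR windows, 2.92% held CGCATTTC, 6.26% held TTTCGTGG and 1.67% held CTCTTTCC. Of pooled windows, 1.15%, 1.47% and 0.945% did, in the same order. Of windows at coding 5′ ends, 0.971%, 0.826% and 0.891% did.

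The region beside K12H4.5 ranked first in every list. On build ce11 it spanned III 8043776 to 8044155 in the pooled list, with a signal of 1026 as the authors' caller gave it. In replicate 1 it spanned 8043787 to 8044146 with a signal of 610.7, and in replicate 2 it spanned 8043787 to 8044121 with a signal of 413.5. Signals have their own scale in each list, so they are compared only within a list. The region stood 31.3 times above the median of the pooled list, 31.0 times above that of replicate 1 and 31.5 times above that of replicate 2. Its signal was 2.20 times that of the third-ranked region in the pooled list, 2.10 times in replicate 1 and 2.34 times in replicate 2.

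The region in M01F1.8 ranked second in every list, and its lead over the next was smaller. It had a signal of 546.3 in the pooled list, 308.5 in replicate 1 and 237.6 in replicate 2. Over the third-ranked region this was 1.17 times in the pooled list, 1.06 times in replicate 1 and 1.35 times in replicate 2. The K12H4.5 region exceeded it by 1.88 times in the pooled list, 1.98 times in replicate 1 and 1.74 times in replicate 2. Both replicates thus gave the same order, with a clear gap after the first region and a slight one after the second. The pooled list holds both replicates, so these lists are not independent of the choice of genes. The −log10 q value did not separate the 2 regions, since 372 regions of the pooled list shared the highest value, 2.87.

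**Figure D1:**
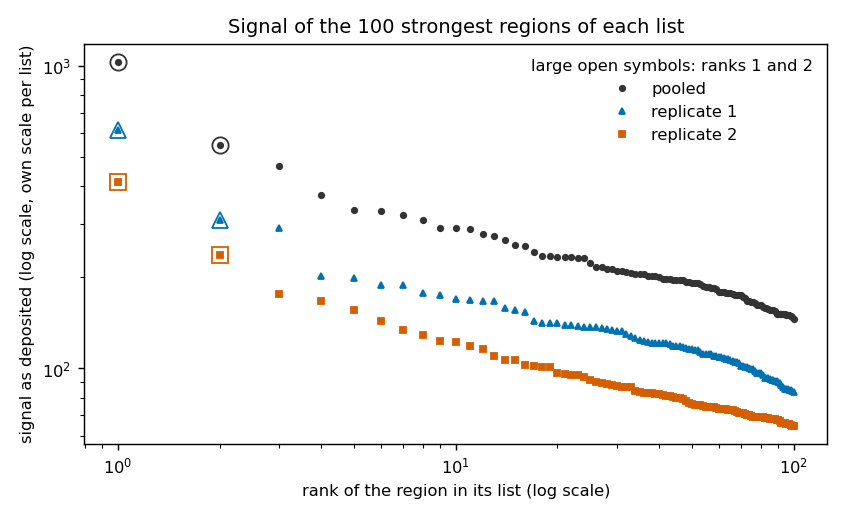
Signal of the 100 strongest regions against their rank in the pooled list and in each replicate, both axes on log scales. Large open symbols mark the K12H4.5 region at rank 1 (1026, 610.7 and 413.5) and the M01F1.8 region at rank 2 (546.3, 308.5 and 237.6).

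The third rank, just outside the choice, also held in every list. That region, at V 12303494 to 12303760 with a pooled signal of 466.6, had 2 snoRNA genes within 250 bp of its summit (C51F7.3, C51F7.4), with F55C5.17 as the closest coding gene. By the worse of the 2 replicate ranks, the regions most like the 2 chosen ones were this one, the region at the snoRNA gene W03C9.9 (nearest coding gene W03C9.1, signal 372.8, rank 4 in both replicates) and the region 8 bp upstream of ears-2, a glutamyl-tRNA synthetase gene (signal 334.0, rank 6 in both). snoRNAs guide the chemical modification of ribosomal RNA. Neither of the 2 strongest regions lay at such a gene, and the region at ears-2 did not either. Of all 479 IDR summits, 195 (40.7%) had a gene for a small RNA, lincRNA or other ncRNA within 250 bp, so most had none. The nearest annotated snoRNA gene was 121579 bp from the K12H4.5 summit and 83422 bp from the M01F1.8 summit, and the nearest tRNA genes were 25444 and 73038 bp away.

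Both regions were narrower than most. Of the 13858 pooled regions, 13824 had a width of 444 bp, and the other 34 ran from 111 to 380 bp. The K12H4.5 region was 380 bp wide, the upper end of that range. Replicate 1 gave it 360 bp and replicate 2 335 bp. The M01F1.8 region had a pooled width of 295 bp, with 249 bp in replicate 1 and 251 bp in replicate 2. A small width was not particular to these regions. The regions most like them, at ranks 3, 4 and 5, were narrower still, with 267, 268 and 232 bp. The summits of the 2 chosen regions differed little between replicates. At K12H4.5 they lay at 8043962 in replicate 1 and 8043955 in replicate 2, and at M01F1.8 at 3500023 and 3500032.

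**Figure D2:**
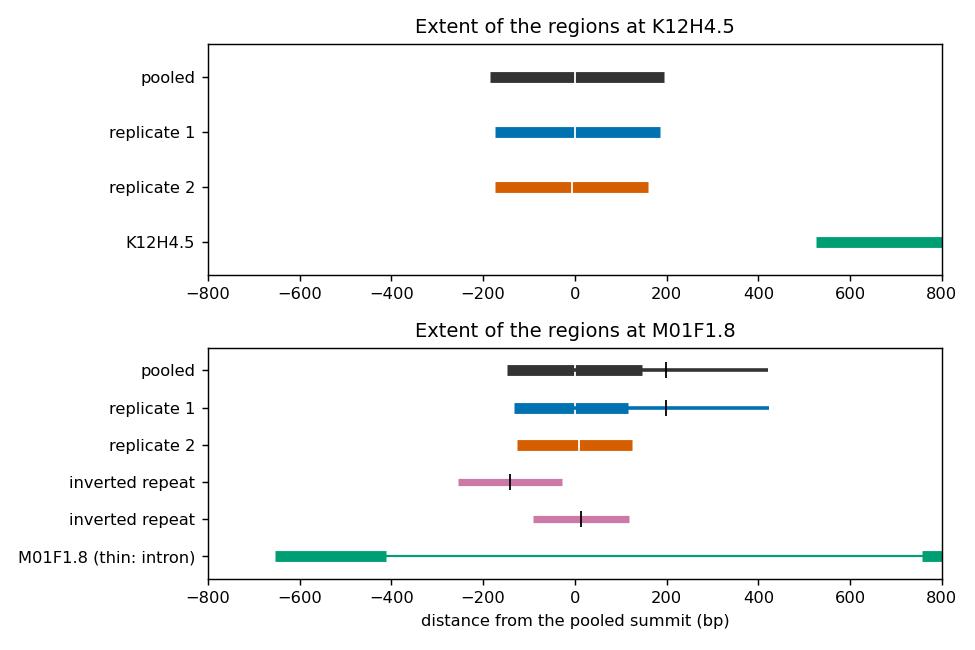
Extent of each region with a summit within 700 bp of the pooled summit, by list, against distance from that summit in bp (ticks mark summits or the centres of repeats). Thick bars are the regions of rank 1 and 2, thin bars weaker regions, pink bars inverted repeats of at least 100 aligned bp and green bars genes; at M01F1.8 a weaker region 199 bp away is seen in the pooled list and replicate 1.

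The summit beside K12H4.5 was intergenic, at III 8043961, in the 1611 bp between the divergent genes K12H4.6 and K12H4.5. No annotated gene, coding or non-coding, touched any base of the region. K12H4.5 (III 8044487 to 8044780, plus strand) has 1 exon, and its model holds no UTR, so its 5′ end here is the start codon. The pooled summit lay 526 bp upstream of it, the summit of replicate 1 was 525 bp upstream and that of replicate 2 was 532 bp upstream. K12H4.6 (III 8042550 to 8042875, minus strand) has 2 exons, and the summit lay 1086 bp upstream of its 5′ end. A further coding gene, spcs-3, starts 236 bp beyond the end of K12H4.5 on the same strand, and the summit lay 1056 bp upstream of its 5′ end, nearer than that of K12H4.6. spcs-3 encodes a subunit of the signal peptidase complex, which cleaves signal peptides from secreted and membrane proteins. Distance alone does not assign the region to any of the 3 genes.

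The summit of the second region, III 3500023, lay inside M01F1.8. That gene (III 3499370 to 3502549, minus strand) has 2 annotated transcripts of 5 exons, and the summit was in intron 4 of both (III 3499611 to 3500780), 412 bp from one end of the intron and 757 bp from the other. It lay 2522 bp downstream of the nearest 5′ end of M01F1.8. M01F1.9 (III 3493814 to 3499057, minus strand, 6 exons) is the next gene on the same strand, and the summit was 966 bp upstream of its 5′ end. In replicate 2 this distance was 975 bp.

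A coding gene was counted as having a summit at its 5′ end when an IDR summit was at most 1500 bp upstream or 500 bp downstream of that end. K12H4.5, K12H4.6 and M01F1.9 met this, 3 of the 4 genes, and M01F1.8 did not; 516 of all 19973 coding genes (2.58%) did. With a window from 500 bp upstream to 200 bp downstream none of the 4 met it, against 1.62% of all coding genes, and with the pooled list the same 3 did, against 29.9%. The genes were chosen by these regions, so nothing is read from the counts. What the narrower window shows is that neither summit lay within 500 bp upstream of an annotated 5′ end of the 4 genes. For K12H4.5, 526 bp from the summit, that end is the start codon, so the distance to its transcript start is not known.

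The surroundings of the regions differed most in the pooled list. Within 20000 bp of the K12H4.5 summit, where the annotation used here has 11 coding genes by 5′ end and 1 non-coding gene, the pooled list held 1 further region, the IDR list none. That region, 2878 bp away at the 3′ end of dpf-6, a dipeptidyl peptidase family gene, ranked 7793 in the pooled list. Its counterpart in replicate 2 had a signal of 20.9 and ranked 1912, and replicate 1 had none there. Replicate 1 held 4 further regions with ranks from 6737 to 22280, and replicate 2 held 9 with ranks from 1912 to 18065. Regions of replicate 1 lay 46 bp and 258 bp upstream of K12H4.6 (signals 20.8 and 15.5), and neither overlapped a region of replicate 2. In replicate 2 a region lay 18 bp upstream of K12H4.7 (signal 18.2, rank 3442), with no counterpart in replicate 1. In the pooled list the top signal exceeded the strongest other region of the locus by 32.4 times. Around 457 of the 479 IDR summits the pooled list held more regions within 20000 bp than the 2 found here, with a median of 7. In replicate 1 the locus held 5 regions, and 441 of 479 IDR summits had more, but in replicate 2 it held 10, close to the median of 11, and 250 had more.

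Around M01F1.8, with 10 coding genes and 1 miRNA gene within the same distance, the pooled list held 10 further regions, and again none of them was in the IDR list. Counting the top region this made 11, and 62 of 479 IDR summits had more. The single replicates were nearer to the middle of the range, with 11 regions in replicate 1, where 189 summits had more, and 12 in replicate 2, where 164 had more. Within 10000 bp replicate 2 held 4 regions here and 5 at K12H4.5, so the order of the loci was the reverse there. In the pooled list and in replicate 1 the strongest further region lay 199 bp from the summit, in the same intron, and overlapped the top region. It had a signal of 58.6 and rank 715 in the pooled list, and a signal of 53.8 and rank 293 in replicate 1, while replicate 2 listed no second region there. The top signal exceeded it by 9.32 times in the pooled list. In replicate 2 the strongest further region was 18995 bp from the pooled summit, 1563 bp upstream of C34C12.6 (signal 21.8, rank 1627). A region 292 bp upstream of lias-1, the gene for lipoyl synthase, was in all 3 lists, with rank 1063 in the pooled list, 1656 in replicate 1 and 4893 in replicate 2. Another 492 bp upstream of lias-1 ranked 4132 in the pooled list and 3676 in replicate 1. A region in an intron of M01F1.4 ranked 4545 in the pooled list and 1518 in replicate 1. In an intron of hmit-1.3, a proton and inositol cotransporter gene, a region was in all 3 lists at ranks of 9230, 20984 and 12069. Close to 5′ ends, replicate 2 placed weak regions 62 bp downstream of that of gly-14, an N-acetylglucosaminyltransferase gene (rank 9343), and 192 bp upstream of C34C12.7 (rank 13112). No list had a region whose nearest coding 5′ end was that of the ribosomal protein gene rpl-16, which lies 3581 bp from the summit. Away from the 2 top regions, most regions of both loci were near the list medians. Outside the top region itself, regions of both replicates overlapped at K12H4.5 in 1 place, 17627 bp from the summit in replicate 1, and at M01F1.8 upstream of lias-1 and in hmit-1.3, besides the second region in the intron of M01F1.8, which touched the top region of replicate 2.

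**Figure D3:**
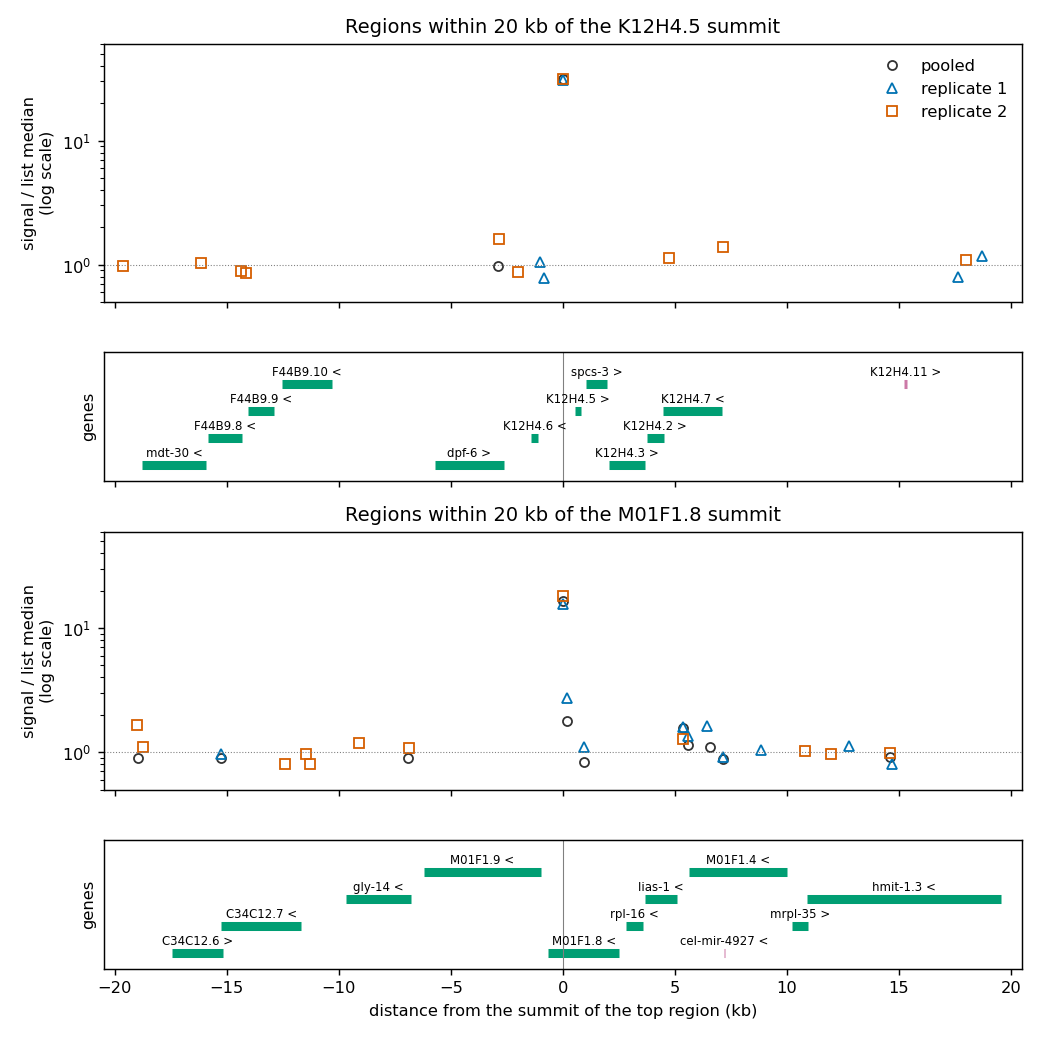
Regions within 20 kb of each summit, by list, with signal divided by the median of the list on a log scale (dotted line: the median), above the genes whose 5′ end is within 20 kb (green coding, pink non-coding, arrows for strand). The K12H4.5 region stands at 31.3, 31.0 and 31.5 list medians and the M01F1.8 region at 16.7, 15.7 and 18.1, and most other regions at both loci are close to the medians.

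Neither summit had the response element core nearby. GCGTG was absent on both strands within 100 bp of both summits, where 193 of 479 IDR windows of that length (40.3%), 16.9% of pooled windows and 11.9% of windows at coding 5′ ends held it. Within 250 bp there was none at K12H4.5 and 1 at M01F1.8. The nearest was 2878 bp from the K12H4.5 summit and 147 bp from the M01F1.8 summit. Of the other 9 motifs searched on both strands within 100 bp, K12H4.5 held GAGAGA at 3 overlapping positions (in 23.8% of IDR windows), TATAAA at 1 (15.4%) and TTTTT at 1 (82.0%). M01F1.8 held TTTTT at 3. Neither held TNGCGTG (in 9.81% of IDR windows), which contains GCGTG, and neither held ACGTG, which was searched together with GCGTG as 1 motif (50.7%). Also absent from both were CACGTG (3.34%), CANNTG (49.7%), GCGCAC (20.3%) and GTTCGA (24.4%), the core of the tRNA B box. An absent motif says only that these letters are not in the window.

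In base composition the windows of 201 bp were within the range of the others. GC content was 40.3% at K12H4.5 and 48.8% at M01F1.8, against a median of 43.8% over the IDR windows (range 25.4 to 62.7%). Both windows held 14 CpG dinucleotides, and the median was 11. Within 250 bp, the M01F1.8 window held 39, and 8 of 479 IDR windows held more. The GC content fell off with distance at both regions and in the IDR median. Within 250 bp it was 32.5% at K12H4.5, 43.7% at M01F1.8 and 38.3% in the median. Of 479 IDR windows, 424 were higher than K12H4.5 there.

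Inverted repeats lay across the M01F1.8 region but not the K12H4.5 region. Aligned with its own reverse complement, the sequence within 500 bp of the M01F1.8 summit showed an inverted repeat at III 3499931 to 3500141 (231 aligned positions, 65.8% identity), whose centre was 13.0 bp from the summit. A second one at III 3499768 to 3499996 (238 aligned positions, 73.1% identity) overlapped its left arm. In the RefSeq sequence the arms of the first run as follows, with the right arm given as its reverse complement and capitals marking words of 8 bases that both arms hold.
Left arm, chrIII:3499931-3500036, plus strand: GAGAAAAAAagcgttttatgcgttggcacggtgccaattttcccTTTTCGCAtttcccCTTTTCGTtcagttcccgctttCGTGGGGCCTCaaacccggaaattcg
Right arm, chrIII:3500037-3500141, minus strand: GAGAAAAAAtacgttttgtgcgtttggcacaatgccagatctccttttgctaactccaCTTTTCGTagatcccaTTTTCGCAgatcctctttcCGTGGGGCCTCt

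Both arms begin with GAGAAAAAA and hold the run CGTGGGGCCTC towards their inner ends, near the summit. Around the K12H4.5 summit the same search found 2 short palindromes, 1 of 42 bp that ended 428 bp from the summit and 1 of 16 bp that began 405 bp away on the other side. Of the 479 IDR summits, 19 (3.97%) lay inside an inverted repeat of at least 100 aligned positions, and M01F1.8 was the only one among the 10 strongest. The lower-case marking of repeats in the RefSeq file covered 45.3% of the 501 bp around the M01F1.8 summit but none of the central 101 bp. Over 501 bp the IDR median was 31.9%, and 114 of 479 windows were higher. At K12H4.5 it covered none of the central 101 bp either.

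**Figure D4:**
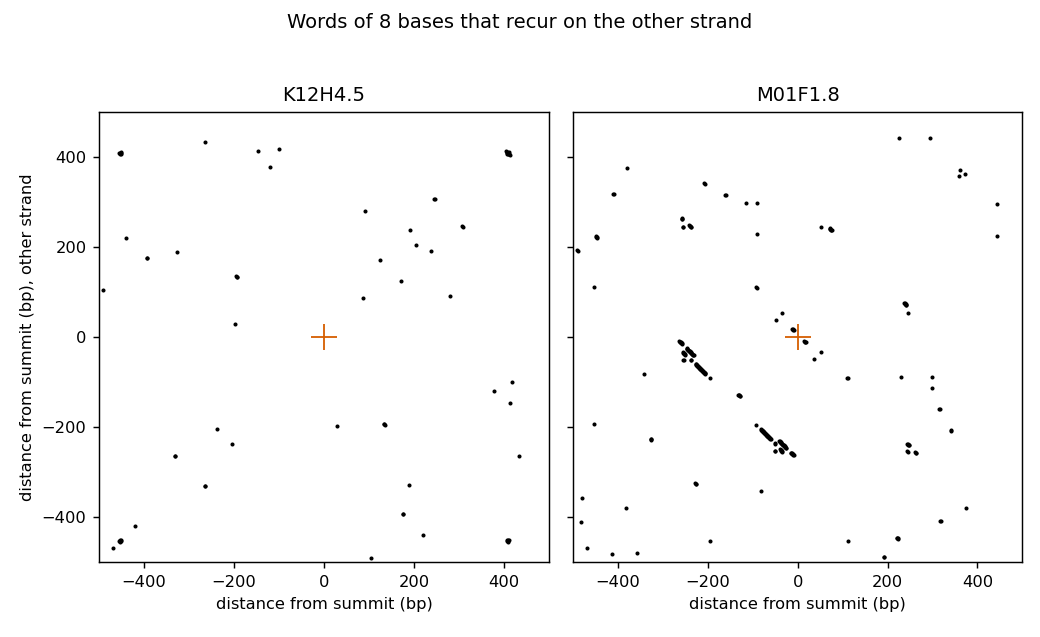
Each dot is a word of 8 bases at one distance from the summit (horizontal axis, bp) whose reverse complement begins at the other distance (vertical axis, bp); the cross marks the summit. At M01F1.8 the dots form falling diagonals left of the summit and short ones through it, where the repeats centred 141 and 13.0 bp from the summit lie, and at K12H4.5 they are scattered.

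The M01F1.8 region also had relatives elsewhere in the genome, and the K12H4.5 region had none. A search with blastn found the K12H4.5 region at its own place only. The M01F1.8 region matched 94 other places. At 55 of them, here called copies, the matches took in at least 50% of the bases of the region. Its arms resemble each other, so the same stretch could match both, and some copies were shorter than 50% of the region. The copy at IV 3055016 spanned 129 bp, while its matches took in 220 bases of the region. The best matches of the copies had a median identity of 81.1% (range 75.2 to 90.3%). They lay on all 6 chromosomes, 16 of them on IV and 1 on X, and 28 lay within a coding gene. The summit windows of 280 of the 479 IDR regions matched no other place. Of the 10 strongest, 7 others besides K12H4.5 had 0 or 1 match, the region at ears-2 had 18 and M01F1.8 had 68. Over all 479, 17 windows had more matches than M01F1.8, up to 133.

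Many of the copies were touched by a region, which needed an overlap of only 1 bp. An IDR region touched 16 of the 55 copies (29.1%, 95% Wilson interval 18.8 to 42.1%), where 0.356% of genome positions with a span of 336 bp, the median of the copies, touched one. A pooled region touched 35 (63.6%, interval 50.4 to 75.1%), against 10.1% of positions. In replicate 1 the count was 32 (58.2%, against 16.5%) and in replicate 2 it was 39 (70.9%, against 16.6%). Among the 479 strongest regions of each replicate alone the share was 29.1% in replicate 1 and 27.3% in replicate 2. The copies were not used in choosing the genes, but were found after the region's sequence had been seen, and the shares are given as a description. The intervals cover counting error only, and copies share sequence, so they are not independent units.

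The copies with an IDR region lay mostly near 5′ ends. Of 34 copies with their midpoint in the 5′ window of a coding gene, 15 (44.1%) touched an IDR region, where 0.614% of all positions in such windows did. Of the 21 copies outside them 1 did (4.76%, against 0.187% of positions). In all, 20 IDR regions touched copies, since 4 copies carried 2 each. The strongest was 598 bp upstream of eel-1 (IV 3050480 to 3050923, signal 278.9, rank 12), and it ranked 11 in replicate 1 and 13 in replicate 2. Next came 1 at 560 bp upstream of rps-24, a ribosomal protein gene (IV 385105 to 385548, signal 202.6, rank 37), and 1 at 424 bp upstream of atad-3, a mitochondrial ATPase gene (II 10248454 to 10248676, signal 196.9, rank 42). Over the 20 regions, summits lay a median of 97.0 bp and at most 213 bp from the midpoint of the copy. Some were outside the copy, as at atad-3, where the summit was 109 bp from the midpoint of a copy of 163 bp. Among the 20, none had a summit within 250 bp of a gene for a small RNA, lincRNA or other ncRNA, against 40.7% of all 479 IDR summits. Antisense RNA genes and pseudogenes were not counted. By summit, 17 (85.0%) were intergenic, against 56.2% of all, and 3 of the 20 were in introns, against 26.7% of all. Unlike M01F1.8, 14 (70.0%) had GCGTG within 100 bp of the summit, against 40.3% of all. These windows can hold sequence beside the copy. These shares were not tested, and the 20 are not separate units, since they overlapped 16 different regions in each replicate when the strongest overlapping region was taken.

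**Figure D5:**
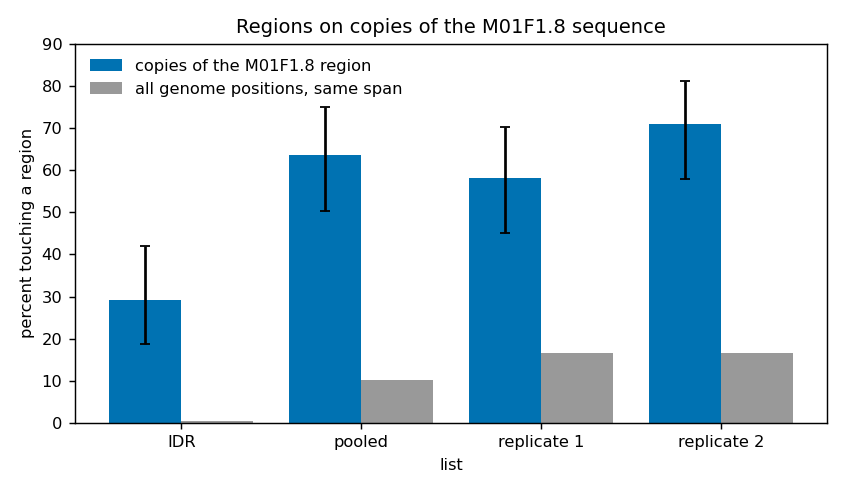
Percent of the 55 copies of the M01F1.8 region that touch a region of each list (blue, with 95% Wilson intervals), beside the percent of genome positions of the same span that do (grey). The copies are at 29.1% against 0.356% for the IDR list and 63.6% against 10.1% for the pooled list.

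The sources used here do not say how reads that map to several places were counted, and the part of this in the signal at M01F1.8 was not tested. In the reference, 30.4% of the words of 20 bases in the M01F1.8 region occur more than once in the genome, 17.3% of those of 25, 0.385% of those of 36 (1 of 260) and none of those of 50. At K12H4.5 this was 0.554% of words of 20 bases and none of the longer ones.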

How the data were processed

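The deposited lists hold regions called by the authors in each replicate, in both replicates pooled, and after IDR thresholding, on builds ce10 and ce11, per the deposited file descriptions. These also say that a control library was used. The sources used here do not name the caller, its settings, the read depth or the IDR threshold. Each region carries a signal and a −log10 q value, as deposited by the authors, each on its own scale per list. The 479 IDR regions are the 479 strongest of the pooled list.

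The ce11 lists were joined to the Ensembl annotation and RefSeq sequence of WBcel235, and no region ended beyond a chromosome. Analyses used Python 3.11.15, pandas 2.3.3, numpy 2.4.6, matplotlib 3.10.9 and BLAST 2.17.0. Copies were blastn matches (E at most 1e-05, dust off), joined within 300 bp and touched when sharing 1 bp with a region. Inverted repeats were minus-strand self-matches (word size 7, E at most 0.001) within 500 bp of a summit. Motifs were searched within 100 bp. The scripts were tested on simulated data.

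There was 1 group with 2 replicates and no test was made. Named genes were the 4 chosen ones, genes at further regions of the loci, and those at the 3 other regions whose worse replicate rank was best, the third-ranked among them. Genes at copies, and the copies themselves, were picked with their values in view. All members, lists and alternatives (each replicate alone, ce10, other windows) were chosen with earlier results of these data known.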

Additional observations from a re-analysis of the deposited data

How the results depend on the processing

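Of 55 alternative values for 19 results, 41 stayed within the spread between replicates, the binomial interval or 1.5 times the main count. The tally is no test of robustness, since some values could not move. Ranks and signal ratios came from the values that chose the genes. With no GCGTG within 100 bp there could be none within 50 bp, and 372 pooled regions shared the top −log10 q. On ce10 the regions were taken by rank, and ranks 1 and 2 lay at III 8043711 to 8044088 and III 3499865 to 3500156. By −log10 q, M01F1.8 shared rank 1. Regions within 20000 bp, 2 at K12H4.5 and 11 at M01F1.8 in the pooled list, were 1 at each in the IDR list, and with 1 replicate left out 5 to 10 at K12H4.5 and 11 to 12 at M01F1.8. Within 250 bp, GC at K12H4.5 was 32.5% and M01F1.8 held 1 GCGTG. With 1 replicate left out, signed distances from the 5′ ends ranged from -532 to -525 bp for K12H4.5, -1087 to -1080 for K12H4.6, 2513 to 2522 for M01F1.8 and -975 to -966 for M01F1.9. Genes with a summit at the 5′ end, 516, were 324 with the narrower window (0 of the 4 genes) and 5972 with the pooled list. Over the third-ranked region, the signal was 2.10 to 2.34 at K12H4.5 and 1.06 to 1.35 at M01F1.8. The share of copies with an IDR region, 29.1%, was 28.6% at E 1e-10. It was 36.4% where matches took in over 80% of the bases of the region. With the 479 strongest regions of a single replicate in place of the IDR list, the share was 27.3 to 29.1%. These values for copies were added after seeing the data. The causes were not tested. No paired analysis was possible because there was 1 group. Read depth is unknown.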
